A study of Mus musculus with 6 samples.

Results

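Il10, Il19, Il20 and Il24 encode 4 cytokines of the interleukin-10 family and lie next to each other in 1 cluster of the mouse genome. They were chosen by name and position in that cluster, with earlier results of these data known. Each symbol has 1 probe set that carries no other symbol. They are 4 of the 22180 genes compared. The samples were CD4+ T cells from spleens of female Wild-type C57BL/6 mice of about 8 weeks, profiled on Affymetrix Mouse Gene 2.0 ST arrays. All cells, controls included, were activated in culture for 24 h with antibodies to CD3 and CD28, each at 10 µg/mL. They were then kept for 24 h with 100 µM icilin, a synthetic cooling compound given in DMSO, or with the DMSO vehicle. Each group has 3 arrays, and cells of the same 3 mice went into both. There was 1 dose, 1 time and no array of resting cells, so levels before activation are not known here.

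IL-10 limits inflammation and is made by several kinds of T cell, by B cells and by macrophages. It binds a receptor of the chains IL10RA and IL10RB, which signals through the kinases JAK1 and TYK2 to the transcription factor STAT3. IL-19, IL-20 and IL-24 bind receptors built from IL20RA, IL20RB and IL22RA1, known chiefly from skin and other epithelia. In mouse T cells Il24 was first described as FISP, a secreted protein induced by IL-4 in Th2 cells.

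Of the 4 genes, Il24 fell with icilin and the other 3 did not pass the test. Il24 was 3.05-fold lower, while Il10, Il19 and Il20 stood 1.12-fold, 1.10-fold and 1.07-fold lower. A gene is called here at an adjusted p under 0.1 by limma (Benjamini-Hochberg over all 22180 genes) with at least 1.5-fold between the groups; both limits are the study's own. By this rule 1.40% of all genes were called, 1.03% lower and 0.370% higher. The median log2 fold change was -0.15 over the 4 genes and 0.01 over all genes. Levels are log2 values from the RMA method, and differences are icilin minus vehicle on that scale. In bulk RNA, fewer cells of a type and less RNA per cell cannot be told apart.

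**Figure D1:**
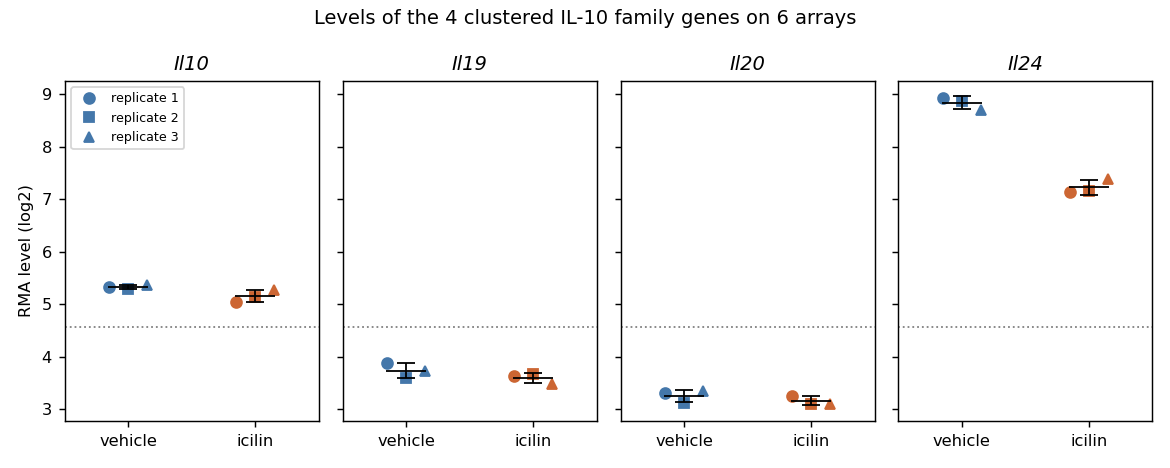
RMA level (log2, y axis) of Il10, Il19, Il20 and Il24 on the 3 vehicle (blue) and 3 icilin (orange) arrays. Symbols mark the replicate number, black bars the mean ± SD of 3 arrays, and the dotted line the median gene (4.57). The Il24 groups are 1.31 apart at their nearest points, and the other 3 genes differ by 0.17 or less in their means.

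Il24 read 8.93, 8.87 and 8.70 on vehicle replicates 1, 2 and 3. On icilin replicates 1, 2 and 3 it read 7.13, 7.16 and 7.39. All 3 icilin arrays were low, and the highest of them lay 1.31 below the lowest vehicle array. The mean went from 8.83 ± 0.12 (SD, n = 3) to 7.22 ± 0.14. The log2 fold change was -1.61 ± 0.10 (SE; 95% interval -1.84 to -1.38; limma adjusted p = 0.000796), a fall of 3.05-fold that is many times the spread within either group. In size of fall Il24 was number 10 of 22180 genes. In the gap from the lowest vehicle array down to the highest icilin array it was number 12.

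The probe set of Il24 was bright in control cells and remained above the median gene with icilin. Ordered by brightness from the top, Il24 was gene 1842 to 2210 on single vehicle arrays and gene 5091 to 5575 on single icilin arrays. In group means this is a move from percentile 91.1 to percentile 75.7. Brightness also depends on a probe set's own binding strength, so such places describe the signal and are no measure of how much RNA one gene makes against another.

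Il10 gave 5.32, 5.28 and 5.36 on the vehicle arrays and 5.04, 5.14 and 5.27 on the icilin arrays. The icilin arrays were all lower, but the groups were only 0.01 apart, and separation with icilin lower was seen in 10.5% of all genes. The difference was -0.17 ± 0.08 (SE; 95% interval -0.35 to 0.02; limma adjusted p = 0.338). Its interval runs from 1.27-fold lower to 1.01-fold higher, so it does not reach 1.5-fold. Il10 lay at percentile 57.9 in brightness, rank 9333.

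Il19 and Il20 were dim in both groups, and their groups overlapped. Il19 read 3.88, 3.59 and 3.73 with vehicle and 3.64, 3.67 and 3.48 with icilin (-0.14 ± 0.10; limma adjusted p = 0.534). Il20 read 3.31, 3.12 and 3.34 with vehicle and 3.26, 3.11 and 3.11 with icilin (-0.09 ± 0.09; limma adjusted p = 0.646). Neither 95% interval reached 1.5-fold (-0.36 to 0.09 and -0.29 to 0.11). In brightness they stood at percentile 33.7 and 25.1, ranks 14695 and 16618. For scale, the 1105 measured olfactory receptor genes, looked up after the values were seen and not known as T cell genes, had a median level of 2.08. Of them, 9.50% were brighter than Il19 and 15.9% brighter than Il20, against 0.814% for Il10 and 0 for Il24. At such levels log2 differences may be compressed toward 0, and a change in a faint transcript may not be visible.

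**Figure D2:**
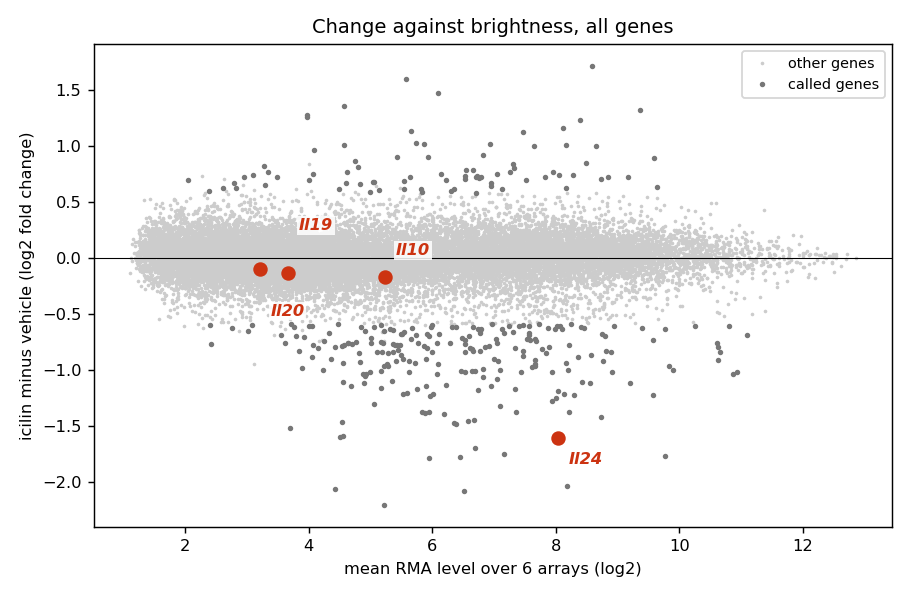
Log2 fold change (icilin minus vehicle, y axis) against mean RMA level over 6 arrays (log2, x axis) for 22180 genes, with called genes in dark grey and the 4 cluster genes in red. Il24 lies at -1.61 at the bright side of the plot, and Il10, Il19 and Il20 lie within the band of genes that were not called.

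The unequal change of neighbouring genes was tested within arrays. On each array the log2 level of 1 gene was subtracted from that of another, and these differences were compared between groups, over 6 pairs. Il24 fell by 1.44 more than Il10, by 1.47 more than Il19 and by 1.52 more than Il20. In each of these 3 pairs the icilin arrays were fully separate from the vehicle arrays (exact two-sided permutation p = 0.1, the smallest that 3 against 3 arrays can give; 0.2 after Benjamini-Hochberg adjustment). Differences among Il10, Il19 and Il20 were 0.07 or smaller in size (exact permutation p from 0.5 to 0.9, and 0.75 to 0.9 adjusted). Il19 and Il20 were dim, and at such levels log2 differences may be compressed toward 0, which was not tested. In the pairs with Il19 and Il20, Il24 itself changed by -1.61, Il19 by -0.14 and Il20 by -0.09. These 2 pairs therefore mostly show the fall of Il24.

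The 4 protein-coding genes on either side of the cluster in the RefSeq annotation were not called. In chromosomal order they are AA986860, Fcamr, Pigr and Fcmr, next to Il24, and Mapkapk2, Dyrk3, Eif2d and Rassf5, next to Il10. Limma called 0 of these 8, as did the study's method, significance analysis of microarrays (SAM). Of all genes limma called 1.40%, so a count of 0 among 8 says little about the neighbours. At an unadjusted p under 0.05, which 17.1% of all genes reached, there was 1, AA986860, which was higher (0.18 ± 0.06; limma adjusted p = 0.203). Fcmr, the receptor for IgM and the nearest neighbour of Il24, differed by -0.03 ± 0.07. Mapkapk2, the stress kinase gene next to Il10, read 9.42, 9.37 and 9.34 with vehicle and 9.23, 9.10 and 9.28 with icilin (-0.17 ± 0.07; limma adjusted p = 0.297). The others were Fcamr (-0.22), Pigr, the transporter of polymeric antibodies (-0.01), the kinase gene Dyrk3 (-0.07), the translation factor gene Eif2d (-0.05) and Rassf5 (-0.01). The 8 had a median of -0.04. The signs of Fcmr, Pigr and Rassf5 turned with single arrays left out, those of Pigr and Rassf5 also with arrays centred on their median (0.00 for both), and that of Pigr with quantile normalization (0.00).

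**Figure D3:**
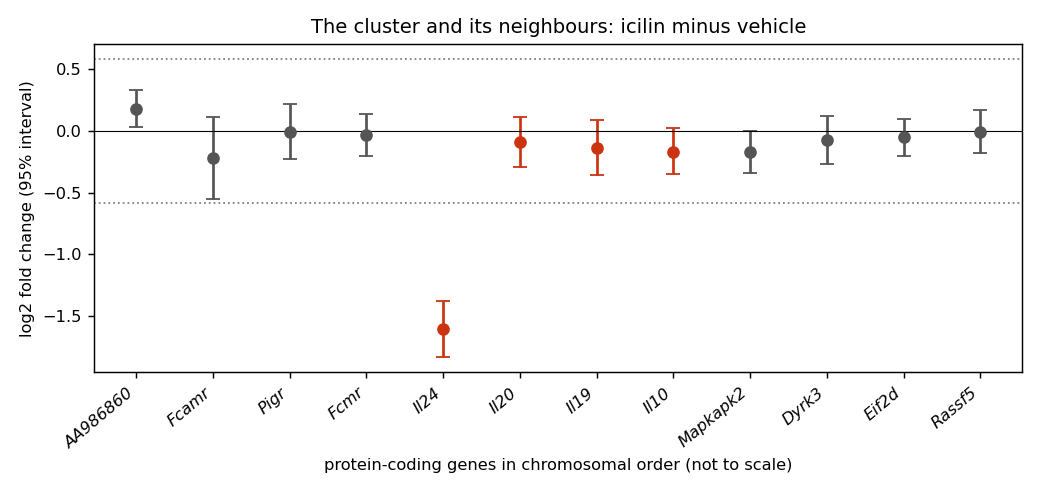
Log2 fold change (icilin minus vehicle) with 95% interval from limma for the cluster (red) and 4 protein-coding genes on each side (grey), in chromosomal order and not to scale. Dotted lines mark 1.5-fold. Il24 is the 1 gene of the 12 beyond them.

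Among 7 receptor chains of the family, Il10ra fell and 6 did not pass. By the same limits 1.03% of all genes were called lower and 0.370% higher. Il10ra, which encodes the ligand-binding chain of the IL-10 receptor, read 8.34, 8.42 and 8.49 with vehicle and 7.77, 7.71 and 7.88 with icilin. The groups were clearly apart, and the difference was -0.63 ± 0.08 (limma adjusted p = 0.00723). Separation with icilin lower was seen in 10.5% of all genes. Il10rb, the chain shared with the receptors for IL-22 and the type III interferons, read 8.38, 8.37 and 8.41 with vehicle. With icilin it read 8.59, 8.58 and 8.58, so this second chain lay on the other side of 0 (0.20 ± 0.06; limma adjusted p = 0.142).

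Chains of the receptors for IL-19, IL-20 and IL-24 were dimmer. Il20ra stood at 3.11 ± 0.32 (SD, n = 3) with vehicle and 2.73 ± 0.13 with icilin (-0.37 ± 0.16; limma adjusted p = 0.296). Il20rb differed by -0.13 ± 0.18 and Il22ra1 by 0.22 ± 0.14. Il22ra2, the soluble decoy of IL-22, stood at 0.10 ± 0.14, and Ifnlr1, the specific chain of the type III interferon receptor, at 0.25 ± 0.07 (limma adjusted p = 0.152). The sign of Il20rb turned without vehicle replicate 3 (0.03) and that of Il22ra2 without icilin replicate 1 (-0.03). The 7 chains had a median of 0.10.

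The 4 family ligands encoded elsewhere did not pass. Il22, an epithelial repair cytokine, stood at 1.54 with vehicle and 1.39 with icilin (-0.15 ± 0.13), at percentile 1.28 in brightness. Its copy Iltifb lay at percentile 0.805. The type III interferon genes Ifnl2 and Ifnl3 differed by -0.02 and -0.03. Limma and SAM called 0 of the 4, and 0 had an unadjusted p under 0.05. Of all genes, limma called 1.40%, and 17.1% had an unadjusted p under 0.05.

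Of 6 measured kinase and STAT genes downstream of these receptors, 4 were lower by less than 1.5-fold. Limma and SAM called 0 of the 6, and limma called 1.40% of all genes. The 4 had an unadjusted p under 0.05 and passed the adjusted p of 0.1 without the fold limit, which 3.00% of all genes did in that direction. Stat3 read 10.98, 10.99 and 11.0 with vehicle and 10.62, 10.56 and 10.55 with icilin (-0.41 ± 0.06; limma adjusted p = 0.0156). Stat5a differed by -0.50 ± 0.08 (limma adjusted p = 0.0218), Jak2 by -0.37 ± 0.06 (0.0228) and Stat5b by -0.35 ± 0.06 (0.0306). Stat5b missed 0.1 when vehicle replicate 2 or icilin replicate 1 or 2 was left out (adjusted p 0.113 to 0.118). Jak1 (0.05 ± 0.06) and Tyk2 (-0.15 ± 0.08), the kinases bound to the IL-10 receptor, did not pass. The 6 had a median of -0.36.

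Of 9 STAT3 target genes of the IL-10 response, Socs3 and Junb fell and 7 did not pass, with a median of -0.06. Over all genes, 1.03% were called lower. Socs3, a feedback inhibitor of cytokine receptors, read 6.68, 6.63 and 6.66 with vehicle and 5.90, 5.86 and 5.95 with icilin (-0.75 ± 0.06; limma adjusted p = 0.00180). With the mean of its probe sets it stood at -0.49, short of 1.5-fold. Junb, an AP-1 subunit that also acts on Il10, differed by -0.63 ± 0.07 (limma adjusted p = 0.00604). Bcl3, a nuclear cofactor of NF-κB, was lower without reaching 1.5-fold (-0.47 ± 0.07; limma adjusted p = 0.0156).

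**Figure D4:**
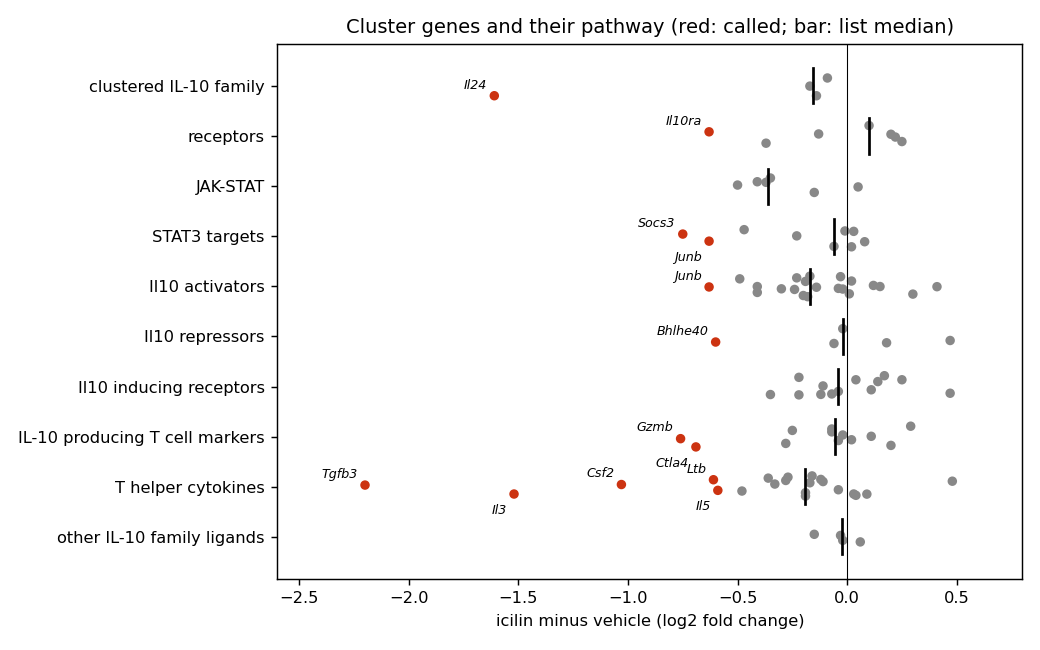
Log2 fold change (icilin minus vehicle, x axis) of the cluster genes and of each gene of 9 lists from their pathway (rows; points spread vertically for legibility). Red points are called genes and black bars list medians. Called genes all lie left of 0.

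Among 21 measured factors that act on Il10 transcription in T cells, Junb fell, 0 rose and 20 did not pass. Of all genes, 1.03% were called lower and 0.370% higher. The list median was -0.17. Without the fold limit, 5 passed the adjusted p lower and 2 higher, against 5.28% of all genes in either direction. Besides Junb and Stat3, the lower ones, named after their values were seen, were Batf, an AP-1 factor of effector T cells (-0.49 ± 0.06; limma adjusted p = 0.00737), Rel (-0.41) and Stat4 (-0.30). The higher ones were the aryl hydrocarbon receptor gene Ahr (0.41 ± 0.06; limma adjusted p = 0.0192) and the early response gene Egr1 (0.30). With 1 array left out, Rel and Stat4 passed 0.1 only without vehicle replicate 1 and Egr1 only without vehicle replicate 3 (adjusted p up to 0.196, 0.219 and 0.163 otherwise). Maf and Prdm1, factors that switch Il10 on in several T helper types, differed by -0.14 (limma adjusted p = 0.433) and -0.19 (0.217), and Irf4 by -0.18 (0.212). Gata3, the Th2 lineage factor, differed by -0.02 (limma adjusted p = 0.892), and its sign turned without vehicle replicate 3 (0.01).

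Of 5 factors known to hold Il10 down, Bhlhe40 fell and 4 did not pass. By the same limits 1.03% of all genes were called lower and 0.370% higher. Bhlhe40 stood at 11.1 with vehicle and 10.5 with icilin (-0.60 ± 0.06; limma adjusted p = 0.00484), and its call ended without vehicle replicate 3, when the difference was -0.56. Tbx21, the Th1 lineage factor, was higher at 0.47 ± 0.07 (limma adjusted p = 0.0191), below 1.5-fold.

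Receptors and cytokines that induce Il10 were not called. Limma and SAM called 0 of 13, against 1.40% of all genes by limma, and the list median was -0.04. An unadjusted p under 0.05 was reached by 2 that were lower and 3 that were higher, against 17.1% of all genes in either direction. The smallest p was that of Il6st, which encodes the gp130 signalling chain of the IL-6 and IL-27 receptors (0.47 ± 0.07; limma adjusted p = 0.0172). Il27ra, its partner in the IL-27 receptor, differed by 0.04. Of 12 markers of IL-10 producing T cells, Gzmb, a granzyme gene (-0.76 ± 0.06), and Ctla4, for a receptor that restrains T cells (-0.69 ± 0.06), fell. The other 10 did not pass, such as the inhibitory receptor gene Lag3 (-0.07) and the regulatory T cell factor Foxp3 (0.29, limma adjusted p = 0.126). Over all genes, 1.03% were called lower.

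Among 21 other cytokine genes of helper T cells, 5 fell, 0 rose and 16 did not pass, with a median of -0.19. Without the fold limit, 7 passed the adjusted p lower and 0 higher, against 3.00% of all genes lower. Besides the 5 that fell, these were Lta (-0.48 ± 0.07, limma adjusted p = 0.0148) and Lif (-0.36 ± 0.06, limma adjusted p = 0.0273). Lta and Lif were named after their values were seen. With 1 array left out, the limma adjusted p of Lif ranged from 0.0785 to 0.108. The largest fall was that of Tgfb3 (-2.20 ± 0.16), followed by Il3, a growth factor of blood progenitors (-1.52 ± 0.17; limma adjusted p = 0.00595). Then came Csf2 (-1.03 ± 0.11), which encodes GM-CSF, the lymphotoxin gene Ltb (-0.61 ± 0.06) and the Th2 cytokine gene Il5 (-0.59 ± 0.12; limma adjusted p = 0.0513). With the mean of its probe sets Csf2 stood at -0.48, below the fold limit. Il5 lost its call when icilin replicate 1 or 3 or any vehicle replicate was left out (-0.63 to -0.49, adjusted p 0.125 to 0.162), and it was just short of 1.5-fold with median centring or quantile normalization (-0.58 in both). The Th2 cytokine genes Il4 and Il13 did not pass (0.04 and -0.28; limma adjusted p = 0.858 and 0.123), and the sign of Il4 turned without icilin replicate 3 or vehicle replicate 3 (-0.02 and 0.00). The 10 lists held 100 genes, each counted once, of which 11 fell and 0 rose. Over all genes, 1.03% were called lower and 0.370% higher. The lists were chosen with earlier results of these data known, so these counts are a description.

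The genes whose array values were most like those of Il24 were found by the mean absolute difference over the 6 arrays, each gene centred on its own vehicle mean. The 5 nearest were Gzma (0.104), Smtnl2 (0.120), Adm (0.121), Il3 (0.132) and Cysltr1 (0.132). They were picked for this likeness, so the values that follow are a description. Gzma, a cytotoxic granule protease gene, read 5.32, 5.25 and 5.23 with vehicle and 3.90, 3.67 and 3.85 with icilin. Cysltr1, a receptor for leukotrienes, read 7.00, 7.17 and 7.10 with vehicle and 5.63, 5.56 and 5.67 with icilin. Adm, the gene of the vasodilator peptide adrenomedullin, differed by -1.60 ± 0.13 and Smtnl2 by -1.45 ± 0.11. Il3 was the cytokine gene among the 5.

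**Figure D5:**
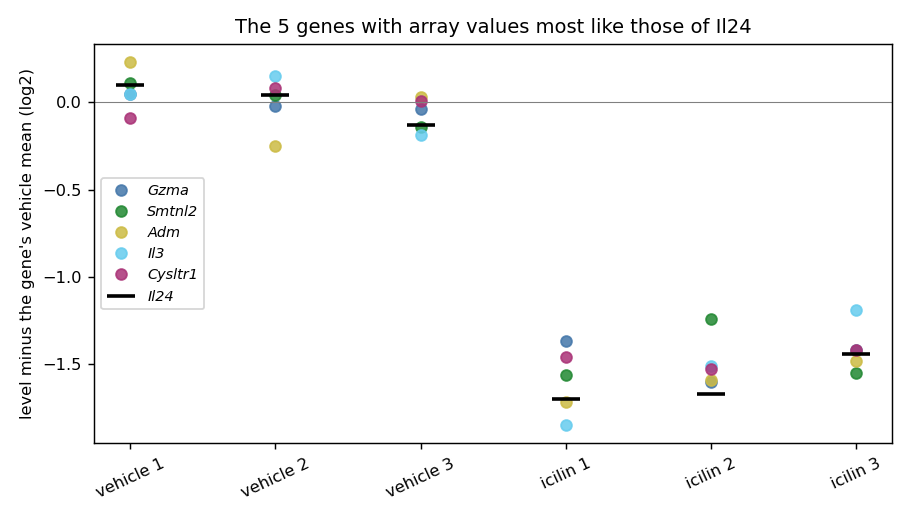
Level minus the gene's own vehicle mean (log2, y axis) on each of 6 arrays (x axis) for Il24 (black bars) and the 5 genes nearest to it (coloured points). On the icilin arrays Il24 and these genes lie below -1, and on the vehicle arrays around 0.

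The arrays carried the signal of CD4+ T cells. Cd4 was at 11.04 with vehicle and 11.06 with icilin and Cd3e at 11.66 and 11.59, percentiles 99.3 and 99.7. Of 6 measured CD4 T cell markers, 0 were called, against 1.40% of all genes (1.03% lower and 0.370% higher). On all icilin arrays Cd28 was higher (0.34 ± 0.07, limma adjusted p = 0.0529) and Cd5 lower (-0.13 ± 0.06, limma adjusted p = 0.315). With 1 array left out, the adjusted p of Cd28 ranged from 0.0682 to 0.172. The summed log2 level of the 6 was 62.8 to 63.3 with vehicle and 63.3 to 63.7 with icilin. Markers of other cells that can make IL-10 were also measured. Of 6 measured B cell markers, 3 were brighter than the median gene, Ms4a1 rose (1.01 ± 0.10), and the summed log2 level was 27.6 to 27.8 with vehicle and 29.1 to 29.5 with icilin. Of 8 myeloid markers, 1 was brighter than the median gene and Mpeg1 rose (0.75 ± 0.16; limma adjusted p = 0.0581, a call lost when replicate 1 or 3 of either group was left out). At an unadjusted p under 0.05, which 17.1% of all genes reached, 2 myeloid markers were higher and 2 lower. The lower ones were Csf1r (-0.26) and Cd68 (-0.26), the bright one. The summed log2 level of the 8 was 29.6 to 30.0 with vehicle and 30.3 to 31.0 with icilin. In sums chosen after the values were seen, the 7 myeloid markers without Mpeg1 came to 26.1 to 26.3 and 25.9 to 26.5, which overlap. The 5 B cell markers without Ms4a1 came to 23.5 to 23.7 and 24.0 to 24.4, which do not overlap. At an unadjusted p under 0.05, 2 of the 6 B cell markers were higher (Ms4a1, and Pax5 at 0.21) and 0 lower. The dendritic, natural killer and CD8 lists summed to 19.7 to 20.3, 8.6 to 9.0 and 10.4 to 11.0 with vehicle. With icilin they summed to 19.3 to 19.8, 8.0 to 8.3 and 10.7 to 11.4, and the 4 measured keratinocyte markers went from 17.7 to 18.3 to a range of 17.1 to 18.1. The natural killer sums did not overlap and were lower with icilin, while the dendritic, CD8 and keratinocyte sums overlapped. Limma and SAM called 0 genes on these 4 lists. At an unadjusted p under 0.05 there were 0 of 5 dendritic markers, with the smallest p for Siglech (-0.16). Passing it were 1 of 3 natural killer markers (Klrb1c, -0.52) and 1 of 4 keratinocyte markers (Epcam, -0.25), both lower. Of 2 CD8 markers, 1 was higher (Cd8b1, 0.39). Over all genes 17.1% reached this limit, so counts on lists this short say little. The part of such cells in the values of the 4 cluster genes was not tested.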

How the data were processed

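The deposited values are on a log2 scale and were made by the authors with RMA from Affymetrix arrays, per the series design text and the submitters' processing notes. The RMA version and the array annotation's build are not given in the sources used here. RMA aligns array distributions, so a shift common to most genes would not show. Of 41345 probe sets, 23521 have 1 gene symbol in the array annotation, 1814 several and 16010 none. The first kind was used, with the brightest probe set per gene. Array medians were 4.24 to 4.30, and the small number of arrays limits precision.

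Icilin was compared with vehicle by limma 3.58.1 in R 4.3.3 (lmFit, eBayes), two-sided, Benjamini-Hochberg over all genes. Called genes pass the study's limits. Neighbours came from RefSeq (GRCm38.p6), with genes ordered by their start coordinates. Permutation tests used scipy 1.17.1. SAM was rewritten here. Limma and SAM were run on simulated data with independent noise and changes larger than the fold limit. Genes with changes near that limit were therefore not covered. By rule, the called genes of each list and the smallest p of a list with no call were named. So were all receptor, kinase and STAT and neighbouring genes, and the 5 genes most like Il24. Other genes named, such as Bcl3, Tbx21, Maf, Prdm1, Irf4, Gata3, Il4, Il13, Cd4 and Cd3e, stand outside this rule. They are examples, or are said to be chosen after their values were seen. Members and lists were chosen with earlier results of these data known. Alternatives were the replicate block, trend with robust variances, median centring, quantile normalization, a filter on dim genes, mean of probe sets, each array left out, SAM, other thresholds and every probe set. Replicates of a group came from separate mice.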

Additional observations from a re-analysis of the deposited data

How the results depend on the processing

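Il24 was called under all 16 alternatives (log2 fold change -1.69 to -1.56, adjusted p up to 0.0130), and Il10, Il19 and Il20 under none of those that kept them; the filter on dim genes removed Il19 and Il20. Leaving out single arrays gave -0.22 to -0.11 for Il10, -0.21 to -0.06 for Il19 and -0.16 to -0.05 for Il20. The 311 called genes became 734 when the limit was an adjusted p of 0.05 alone, and 87 with 2-fold added; the 11 called list genes became 22 and 3. With the replicate number as a block, Il24 had an adjusted p of 0.0130, 283 genes and 10 list genes were called, and Il5 and Mpeg1 lost their calls (adjusted p 0.117 and 0.150), while no other call of a named gene changed. Without the fold limit, Jak2, Stat5b, Rel, Stat4, Egr1, Cd28 and Lif missed 0.1 with the block (adjusted p 0.110, 0.120, 0.114, 0.203, 0.157, 0.144 and 0.112). The labels do not say that a number names a mouse, and same-numbered arrays did not deviate together (correlations -0.005, -0.014 and -0.022).

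With single arrays left out, differences near 0 changed sign: Fcmr ranged from -0.07 to 0.00, Gata3 from -0.05 to 0.01, Il4 from -0.02 to 0.11, Il20rb from -0.27 to 0.03, Il22ra2 from -0.03 to 0.21, Pigr from -0.07 to 0.08 and Rassf5 from -0.05 to 0.04. With arrays centred on their median Pigr and Rassf5 stood at 0.00, as did Pigr with quantile normalization. The pair differences ranged from -0.15 to 0.05 for Il10 minus Il19, -0.16 to 0.03 for Il10 minus Il20 and -0.10 to 0.00 for Il19 minus Il20. The call of Il5 ended in 11 of 16 alternatives. The cause was not tested. Low signal limits what can be seen of Il19 and Il20.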
